A study of Homo sapiens with 3 samples.

Results

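Hyaluronan is a long, unsulphated polysaccharide of the extracellular matrix. Membrane enzymes named hyaluronan synthases build it, hyaluronidases cut it, and cells bind it through surface receptors such as CD44. In breast cancer lines of mesenchymal type, including the line used here, a hyaluronan coat and CD44 are known for their part in adhesion and motility. The 8 genes described here are the synthases HAS1, HAS2 and HAS3, the hyaluronidases HYAL1 and HYAL2, the secreted hyaluronan-binding protein TNFAIP6, and the receptors CD44 and HMMR. They were selected on shared membership of this pathway, with the differences between these 3 arrays already known. Probe sets were taken where the platform annotation paired them with 1 of these symbols alone. This gave 22 probe sets for 6 of the 8 genes, out of 54675 probe sets in all and 41097 with a single symbol: 13 for CD44, 2 each for HAS2, HAS3, TNFAIP6 and HMMR, and 1 for HYAL2. HAS1 and HYAL1 had no probe set paired with their symbol alone and are not analysed here.

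RNA came from MDA-MB-231, a human breast cancer cell line in which oestrogen receptor alpha is usually reported as absent. In every group the cells had a 4 h preincubation in 10% charcoal-stripped serum, a serum depleted of steroid hormones. The groups then differed in a 3 h exposure to 1 µM ERα17p, a receptor-derived peptide, to 1 µM of the hormone estradiol, or to 0.1% ethanol as vehicle. The labels name no solvent for the peptide or for estradiol. The question is what each agent does to early transcripts and whether peptide and hormone differ. Each group is 1 Affymetrix HG-U133 Plus 2 array, so nothing below has a replicate check or a test, and precision is limited by this number. Values are on the log2 scale, and each probe set had been centred on an undescribed reference level before deposit. They show differences between arrays, and the level of a gene, or whether it is detected, cannot be read from them.

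The vehicle array spread more widely than the other arrays. Over all probe sets the SD was 0.241 for ERα17p, 0.260 for estradiol and 0.494 for vehicle. Spikes added before labelling exceeded their vehicle values by 2.04 with ERα17p and by 2.03 with estradiol (log2, medians of 27 probe sets), and differed by 0.00 between the treated arrays. Hybridisation spikes, added after labelling, went the other way, at -0.93 and -0.74 against vehicle (18 probe sets), and at -0.15 for ERα17p minus estradiol. The part of these in the comparisons with vehicle was not tested, and both of those comparisons share the 1 vehicle array. For ACTB, the 3' probe set minus the 5' one, a measure that moves with RNA integrity, read 0.31 with ERα17p, -0.27 with estradiol and 0.11 with vehicle. For GAPDH it read 0.15, 0.06 and 0.13. The line's mesenchymal and luminal markers cannot be checked as levels. As differences from vehicle, 3 of 7 mesenchymal markers were at least 1.5-fold higher with ERα17p and 2 of 7 with estradiol. Of all genes, 9.56% and 10.6% were. The markers were SNAI2 (2.08 with ERα17p and 1.84 with estradiol), FN1 (0.99 and 0.81) and, with ERα17p only, ZEB1 (0.61). The 7 probe sets of FN1 ran from -1.44 to 1.12 with ERα17p and from -2.28 to 0.94 with estradiol. In each comparison 2 of the 7 markers were below 0. Of 7 luminal markers, 0 were higher and 1 was lower with ERα17p (KRT18, -0.87), and 1 was higher (EPCAM, 0.78) and 1 lower (KRT18, -0.84) with estradiol. The shares of all genes that were lower were 8.82% with ERα17p and 8.42% with estradiol. Between the treated arrays 0 of 7 in either list passed 1.5-fold, where 1.29% of all genes were higher and 2.04% lower for ERα17p minus estradiol. Of 4 measured blood-cell markers, 0 passed with ERα17p and 1 (CD14) was higher with estradiol. Of 5 fibroblast and endothelial markers 0 passed in any comparison.

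HAS2, the synthase of long hyaluronan chains, was the member that stood out, with its low value on the estradiol array. Its probe set 206432_at read -0.01 with ERα17p, -0.86 with estradiol and 0.22 with vehicle. Its other probe set, 230372_at, read -0.10, -0.88 and 0.34 on the same arrays. Both probe sets thus placed the estradiol array lowest and the vehicle array highest. In the gene median, HAS2 was lower with estradiol than with vehicle by a log2 difference of -1.15 (2.22-fold), with its probe sets at -1.08 and -1.22. The difference of ERα17p from vehicle was -0.33, short of 1.5-fold. In RNA from a whole culture, fewer expressing cells and less RNA per cell cannot be told apart.

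HAS2 was also compared between the treated arrays, a difference that subtracts no vehicle value. Set directly against estradiol, ERα17p gave a HAS2 value 0.82 higher (1.76-fold), with the probe sets at 0.85 and 0.78. Of 19775 genes, 39 had a larger positive difference in that comparison. On the estradiol array taken alone, 13 of the 19775 genes lay farther below their reference level than HAS2, whose median there was -0.87. The arrays behind that reference level are unknown, so this rank may not be free of the vehicle array. The members were selected with the differences between these arrays known, so both ranks are descriptions and not tests. The SD between the pair of HAS2 probe sets was 0.0489 for ERα17p minus estradiol, against a median of 0.220 over 10523 genes with several probe sets. It was 0.0993 for estradiol minus vehicle and 0.148 for ERα17p minus vehicle, against medians of 0.332 and 0.321. These probe sets read the same RNA on the same arrays, so they are not replicates. After quantile normalisation HAS2 was at 1.26 for ERα17p minus estradiol and at -1.54 for estradiol minus vehicle. That normalisation uses all 3 arrays, so these values are not free of the vehicle array. Over all genes it moved the 1.5-fold calls for ERα17p minus estradiol from 255 higher and 404 lower to 643 and 899. Beside the direct comparison, the ACTB 3' minus 5' measure differed by 0.58 between the same arrays and the GAPDH one by 0.09. The part of these in the HAS2 difference was not tested.

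**Figure D1:**
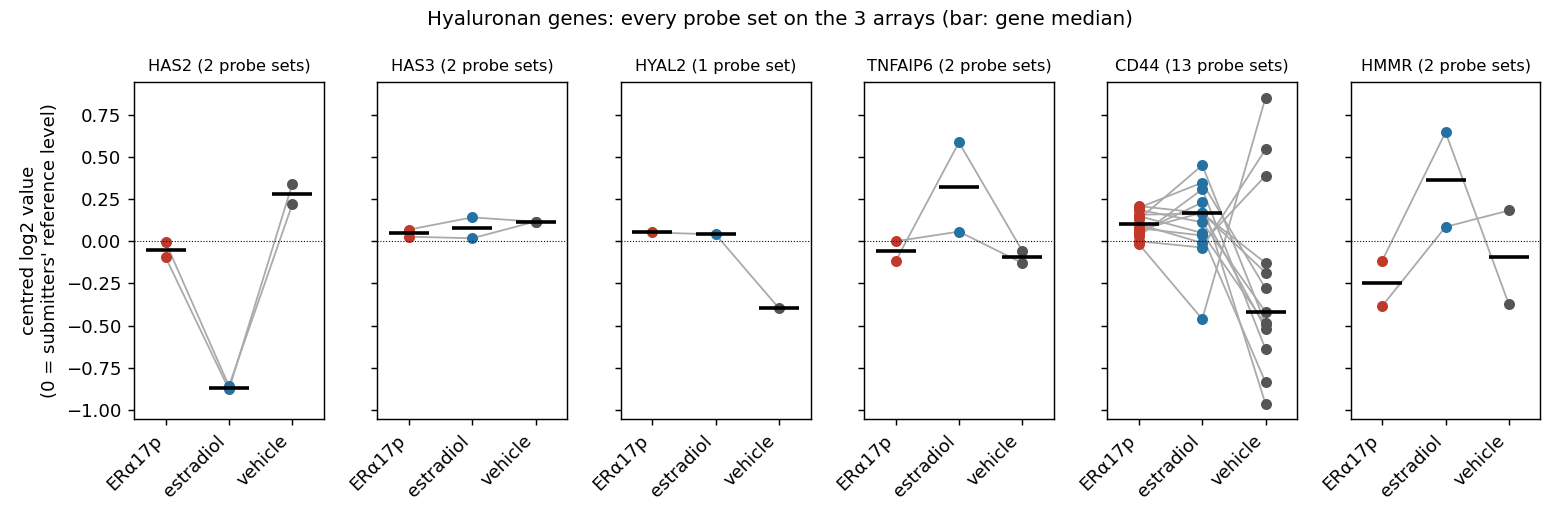
Centred log2 values of every probe set of the 6 measured genes on the ERα17p, estradiol and vehicle arrays (1 array each); grey lines join a probe set across arrays and black bars are gene medians. Both HAS2 probe sets sit near -0.87 on the estradiol array, whereas HAS3 stays between 0.02 and 0.14 on all 3 arrays.

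HAS3, which makes shorter chains, showed no such pattern. Probe set 1552980_at read 0.07 with ERα17p, 0.14 with estradiol and 0.12 with vehicle. Probe set 223541_at read 0.03, 0.02 and 0.12. Its gene differences were -0.07 for ERα17p minus vehicle, -0.04 for estradiol minus vehicle and -0.03 for ERα17p minus estradiol. Against vehicle, 8213 of 19775 genes were lower than HAS3 with ERα17p and 8934 with estradiol, which places it near the middle. HAS3 thus differed little between these arrays while HAS2 was low on the estradiol array; without replicates the difference between the 2 synthases was not tested.

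HYAL2, a hyaluronidase anchored to the cell surface that cuts long chains into fragments, rested on 1 probe set, 206855_s_at. It read 0.05 with ERα17p, 0.04 with estradiol and -0.40 with vehicle. The treated arrays were nearly equal, and the vehicle array was the low one. HYAL2 was 0.45 above vehicle with ERα17p (1.36-fold) and 0.44 above it with estradiol (1.35-fold), both short of 1.5-fold, and ERα17p minus estradiol was 0.01.

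TNFAIP6, also called TSG-6, binds hyaluronan and moves heavy chains of inter-alpha-inhibitor onto it, and in other cells is induced by inflammatory cytokines. Its probe set 206026_s_at read -0.12 with ERα17p, 0.59 with estradiol and -0.06 with vehicle. The second, 206025_s_at, read 0.00, 0.06 and -0.13. Both were highest on the estradiol array, but by very different margins. The gene differences were 0.03 for ERα17p minus vehicle, 0.41 for estradiol minus vehicle and -0.38 for ERα17p minus estradiol, and none reached 1.5-fold. Single probe sets of the gene lay at 0.64 and 0.19 for estradiol minus vehicle, and at -0.70 and -0.06 for ERα17p minus estradiol.

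CD44, the main hyaluronan receptor, whose transcript is spliced into many variants, had 13 probe sets that did not move as one. On the vehicle array 10 of the 13 had their lowest value and 3 their highest; over all 41097 probe sets with 1 symbol, the vehicle array was lowest in 39.6% and highest in 37.8%. The treated arrays were close to each other. The gene median was 0.10 with ERα17p, 0.17 with estradiol and -0.42 with vehicle. CD44 was 0.58 above vehicle with ERα17p, just under the 1.5-fold limit, and 0.54 above it with estradiol (1.46-fold). ERα17p minus estradiol was 0.04.

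Among CD44 probe sets, 6 of 13 were at least 1.5-fold higher with ERα17p than with vehicle and 1 was lower, against 13.1% and 11% of all probe sets. With estradiol 6 were higher and 1 was lower, against 14.1% and 11.4%. Probe set 229221_at, the farthest on the high side, read 0.05 with ERα17p, 0.23 with estradiol and -0.96 with vehicle. Probe set 204489_s_at, annotated to the CD44 mRNA record NM_000610, read 0.08, 0.03 and -0.84. In both, the vehicle array lay well below the treated arrays. The opposite order held for 1565868_at, at -0.02 with ERα17p, -0.46 with estradiol and 0.85 with vehicle. It also held for 217523_at, at 0.00, -0.04 and 0.55, and for 234418_x_at, at 0.10, -0.01 and 0.39. The sources used here do not say which CD44 exons these probe sets read. The probe sets share the 1 transcript locus and 3 arrays, so they are not replicates. Without probe sets whose identifier marks a possible match to several transcripts, the CD44 median was 0.29 for ERα17p minus vehicle and 0.29 for estradiol minus vehicle, and with the mean of all 13 it was 0.35 and 0.36.

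**Figure D2:**
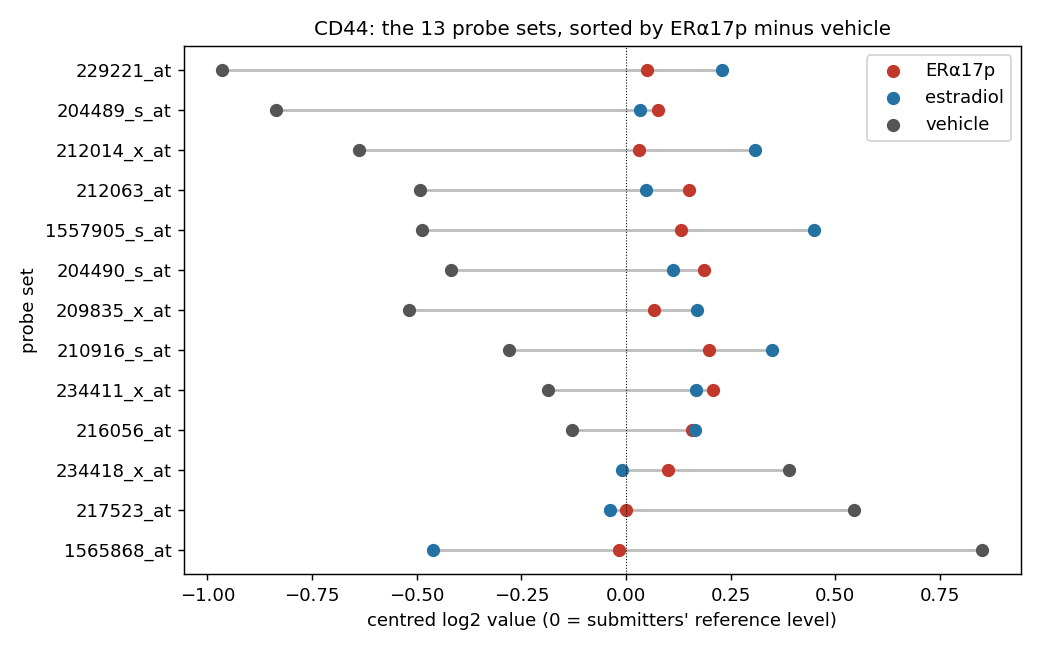
Centred log2 value of each of the 13 CD44 probe sets (rows) on the ERα17p array, the estradiol array and the vehicle array (points; 1 array each). The vehicle point is leftmost in 10 rows and rightmost in 3.

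HMMR, also called RHAMM, is a hyaluronan-binding protein that inside the cell sits on the mitotic spindle. Probe set 207165_at read -0.38 with ERα17p, 0.09 with estradiol and 0.18 with vehicle. Probe set 209709_s_at read -0.11, 0.65 and -0.37. Both probe sets were lower with ERα17p than with estradiol, but they disagreed on the place of the vehicle array, which was the highest array in one and the lowest in the other. ERα17p minus estradiol was -0.61 in the gene median (1.53-fold lower), with the probe sets at -0.47 and -0.76. In that comparison 332 of 19775 genes were lower than HMMR. Without 209709_s_at the difference was -0.47, short of 1.5-fold. Against vehicle the probe sets pointed opposite ways, at -0.57 and 0.26 with ERα17p and at -0.10 and 1.02 with estradiol, so no direction is given for either.

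Counted over the 6 measured genes at a 1.5-fold limit, the comparisons gave few calls. For ERα17p minus vehicle, 0 genes were higher and 0 lower, against 9.56% and 8.82% of all genes. For estradiol minus vehicle, 0 were higher and 1, HAS2, was lower, against 10.6% and 8.42% of all genes. For ERα17p minus estradiol, 1 was higher (HAS2) and 1 lower (HMMR), against 1.29% and 2.04% of all genes. At a 2-fold limit HAS2 was still called lower for estradiol minus vehicle, against 2.18% of all genes, and for ERα17p minus estradiol 0 members were higher and 0 lower, against 0.0354% and 0.212%. The median over the 6 genes was -0.02, 0.43 and -0.01 in those comparisons, and over all genes it was 0.00, 0.00 and -0.01. The members were chosen with earlier results in view, so these counts describe the arrays and support nothing about the pathway as a whole.

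**Figure D3:**
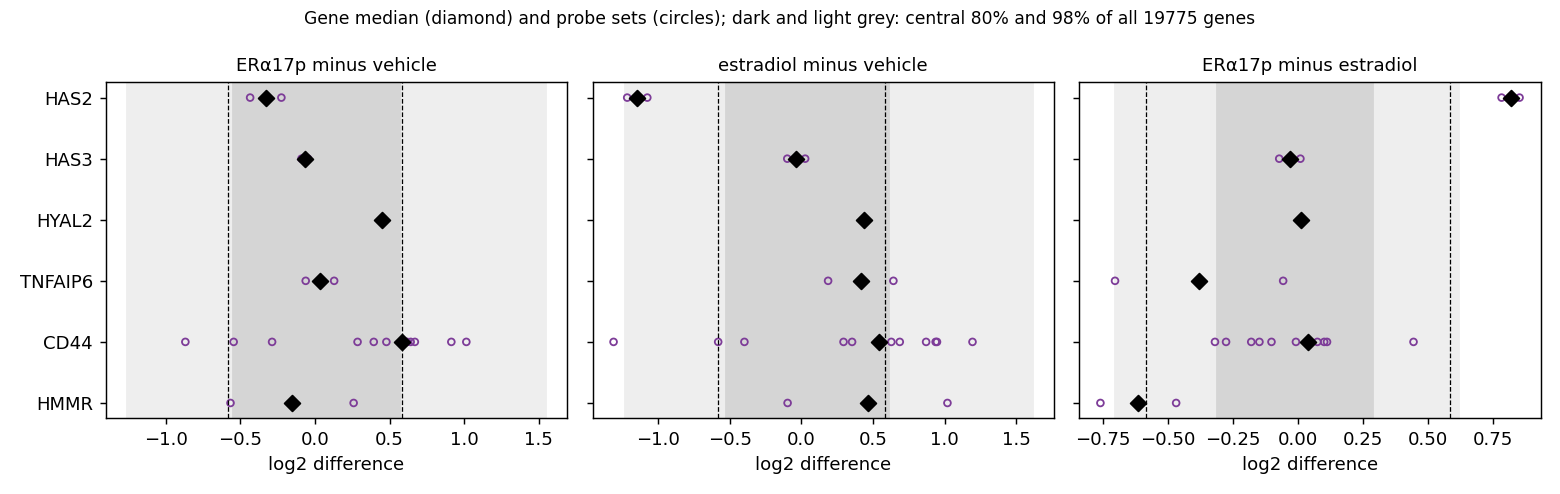
Log2 difference of each measured gene (diamond, gene median; circles, probe sets) in the 3 comparisons, with dark and light grey bands for the central 80% and 98% of all genes and dashed lines at 1.5-fold. HAS2 lies at 0.82 for ERα17p minus estradiol and HMMR at -0.61; HAS2 also lies at -1.15 for estradiol minus vehicle.

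Promoter sequences are shown for the 3 measured members other than HAS2 with a probe set past 1.5-fold and an entry in the RefSeq promoter table, because the hormone's receptor and the early-response factors act at known short sequence motifs. Each is the 250 bases before the gene's start in GRCh38.p14, on the strand given, 5′ to 3′, and capitals mark every match to a searched motif.
CD44, chr11:35138921-35139170, + strand: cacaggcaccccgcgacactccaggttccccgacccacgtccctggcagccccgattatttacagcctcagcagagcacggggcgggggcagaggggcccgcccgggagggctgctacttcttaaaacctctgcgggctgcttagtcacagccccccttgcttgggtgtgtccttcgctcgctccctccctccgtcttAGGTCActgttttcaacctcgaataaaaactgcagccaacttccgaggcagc
TNFAIP6, chr2:151357342-151357591, + strand: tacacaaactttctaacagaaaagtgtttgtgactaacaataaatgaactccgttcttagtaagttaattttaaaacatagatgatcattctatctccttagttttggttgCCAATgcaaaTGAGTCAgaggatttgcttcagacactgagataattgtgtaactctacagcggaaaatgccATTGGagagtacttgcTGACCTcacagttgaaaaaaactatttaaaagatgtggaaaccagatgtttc
HMMR, chr5:163460382-163460631, + strand: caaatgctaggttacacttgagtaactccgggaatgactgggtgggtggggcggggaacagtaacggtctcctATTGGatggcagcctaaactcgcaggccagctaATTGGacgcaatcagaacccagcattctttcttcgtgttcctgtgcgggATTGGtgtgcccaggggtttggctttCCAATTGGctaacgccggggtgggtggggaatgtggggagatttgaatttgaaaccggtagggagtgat

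The motifs were searched on both strands in the same 250-base window of 35116 RefSeq promoters. They were the full palindromic oestrogen response element (in 0.0399% of promoters), its half-site AGGTCA (12.1%), the AP-1 site TGANTCA (6.57%), the NF-kB consensus (5.21%), the CCAAT box CCAAT (32%) and the TATA box TATAAA (10.7%). The CD44 window held 1 half-site, at positions -52 to -47 counted back from the start. The TNFAIP6 window held a half-site at the same positions, an AP-1 site at -129 to -123, and a CCAAT box on each strand. The HMMR window held 5 CCAAT matches, 4 of them on the opposite strand; one of these overlaps the match on the given strand. None of the 3 windows held the full element, the NF-kB consensus or the TATA box, which says only that these letters are not in these bases. The windows of the other members in the table, HAS1, HAS3, HYAL1 and HYAL2, held 1, 0, 0 and 0 matches.

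Other genes of the pathway were described from 6 lists, with 57 of 60 genes measured. At the 1.5-fold limit, ERα17p minus vehicle gave 10 higher and 3 lower genes, against 9.56% and 8.82% of all genes. Estradiol minus vehicle gave 10 higher and 2 lower, against 10.6% and 8.42%. For ERα17p minus estradiol 0 of 57 passed 1.5-fold in either direction, against 1.29% and 2.04% of all genes. Their median was 0.06 for ERα17p minus vehicle, 0.10 for estradiol minus vehicle and 0.01 for ERα17p minus estradiol. With the centred values taken as they stand, without subtracting the vehicle array, none of the 6 lists held a gene past 1.5-fold on either treated array. Of all genes, 0.496% were then higher and 0.632% lower with ERα17p, and 1.28% and 0.516% with estradiol.

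Among enzymes that make the sugar precursors of hyaluronan, 1 of 6 measured genes was higher in each comparison with vehicle and 0 were lower. Of all genes, 9.56% were higher and 8.82% lower with ERα17p, and 10.6% and 8.42% with estradiol. It was GFPT1, the first enzyme of the hexosamine pathway, at 0.28 with ERα17p, 0.27 with estradiol and -1.06 with vehicle. GFPT1 was 1.31 above vehicle with ERα17p and 1.27 with estradiol, and all 4 of its probe sets lay between 1.20 and 1.66. UGDH, which makes the glucuronic acid donor, was at 0.54 and 0.57, just short of 1.5-fold. PGM1 (0.42 and 0.51) and UGP2 (0.16 and 0.31), which act before UGDH in the making of UDP-glucose, were nearer 0.

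Of 7 measured genes of other hyaluronan breakdown, CEMIP was past 1.5-fold on the high side in both comparisons with vehicle, and HYAL3 on the low side for ERα17p. The shares of all genes were 9.56% higher and 8.82% lower with ERα17p, and 10.6% and 8.42% with estradiol. CEMIP, a hyaluronan-binding protein needed for hyaluronan breakdown in fibroblasts, was 1.82 above vehicle with ERα17p and 2.26 with estradiol, but its probe sets disagreed. Probe set 212942_s_at read -0.10 with ERα17p, 0.26 with estradiol and -3.96 with vehicle, whereas 1554685_a_at read -0.29, 0.24 and -0.05. The CEMIP difference therefore rests on the first. HYAL3, a hyaluronidase-family gene with a single _s_at probe set, was at -0.59 with ERα17p, barely past the limit, and -0.22 with estradiol. After quantile normalisation it was at -0.48 with ERα17p, short of the limit. The lysosomal enzyme gene GUSB was at -0.03 and -0.41, and the cell-surface hyaluronidase gene CEMIP2 at 0.31 and 0.07.

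Of 18 other receptors and binding proteins, 4 were higher and 0 lower in each comparison with vehicle. The all-gene shares were 9.56% higher and 8.82% lower with ERα17p, and 10.6% and 8.42% with estradiol. PTX3, a pentraxin of the hyaluronan matrix, was at 1.54 with ERα17p and 1.53 with estradiol, on 1 probe set. After quantile normalisation it was at 0.95 and 0.94. TLR4 and TLR2, innate receptors reported to respond to hyaluronan fragments, were at 1.43 and 1.36 (TLR4) and at 1.35 and 1.37 (TLR2). C1QBP, a mostly mitochondrial protein first described as hyaluronan-binding, was at 0.74 and 0.66, and at 0.61 and 0.52 after quantile normalisation, the last short of 1.5-fold. Without _x_at and _s_at probe sets TLR4 was at 0.60 and 0.72. TLR2, like PTX3, had 1 probe set. The vehicle array read -1.53 for PTX3, -0.92 for TLR4, -1.07 for TLR2 and -0.57 for C1QBP. The chains of inter-alpha-inhibitor, the donor used by TNFAIP6, had 0 of 6 genes past 1.5-fold, with ITIH2 at -0.32 and -0.36, ITIH1 at -0.35 and -0.14, ITIH4 at -0.29 and 0.15, and AMBP at -0.01 and -0.36.

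Of 12 CD44 partners and shedding proteases, 3 were higher and 1 lower in each comparison with vehicle. Among all genes 9.56% were higher and 8.82% lower with ERα17p, and 10.6% and 8.42% with estradiol. ADAM10 and MMP14, proteases that can cleave CD44, were at 1.43 and 1.28 (ADAM10) and at 0.82 and 0.74 (MMP14), for ERα17p and estradiol in turn. Of the proteins that tie CD44 to actin, RDX was at 0.93 and 0.63 and EZR at -0.83 and -0.77. RDX had 4 probe sets, of which 244739_at was at -0.14 and 0.09 and 204969_s_at at 0.93 and 0.30. EZR had 5 probe sets, of which 208622_s_at went the other way, at 0.28 and 0.43. These counts moved with the processing. After quantile normalisation 6 were higher and 0 lower with ERα17p, and 2 higher and 0 lower with estradiol, with EZR at -0.26 and -0.57 and RDX at 0.88 and 0.46. The all-gene shares were then 8.48% higher and 7.53% lower with ERα17p, and 9.73% and 6.27% with estradiol. Without _x_at and _s_at probe sets 2 were higher and 2 lower with ERα17p, and 1 higher and 1 lower with estradiol, with ADAM10 at 0.59 and 0.50 and MMP14 at 0.41 and 0.32. In that setting the all-gene shares were 9.23% and 8.63% with ERα17p, and 10.3% and 8.43% with estradiol.

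Of 8 spindle partners of HMMR, 1 was higher and 1 lower in each comparison with vehicle. Across all genes 9.56% were higher and 8.82% lower with ERα17p, and 10.6% and 8.42% with estradiol. FAM83D, a spindle protein that binds HMMR, was at 0.71 and 0.94, and NUMA1, a spindle-pole protein, at -0.71 and -0.68. After quantile normalisation both fell short of 1.5-fold for ERα17p, with FAM83D at 0.55 and NUMA1 at -0.55, where 8.48% of all genes were higher and 7.53% lower. At a 2-fold limit 0 of 8 passed in either comparison. At that limit 3.34% of all genes were higher and 2.48% lower with ERα17p, and 3.94% and 2.18% with estradiol. The spindle motor gene KIF11 was at 0.20 and 0.33, and the mitotic kinase gene AURKA at -0.27 and -0.24.

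**Figure D4:**
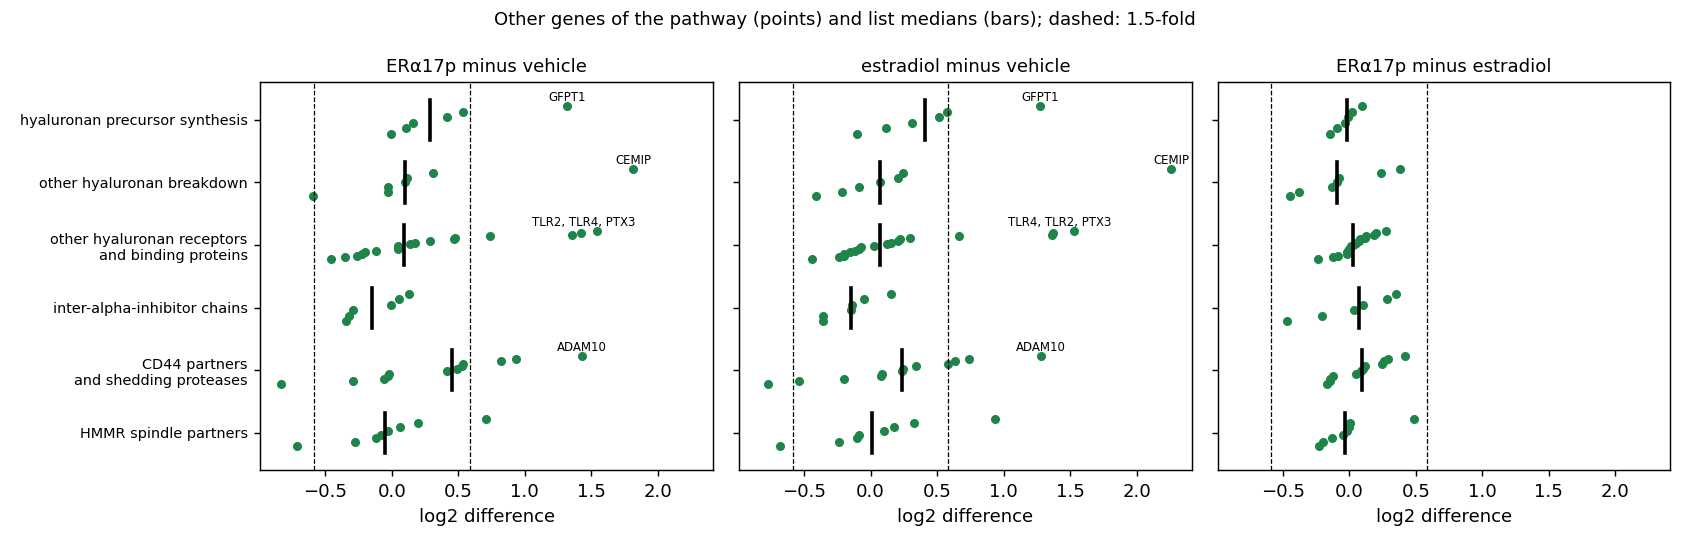
Log2 difference of each measured gene (points) in the 6 lists of other pathway genes, with list medians (bars) and dashed lines at 1.5-fold, in the 3 comparisons. GFPT1, CEMIP, PTX3, TLR2, TLR4 and ADAM10 lie at 1.27 or above in both comparisons with vehicle, and no gene passes 1.5-fold for ERα17p minus estradiol.

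The 3 genes with several probe sets whose values over the 3 arrays lay nearest to HAS2 were TICRR (distance 0.176), SPATA21 (0.266) and SAMD10 (0.278), by Euclidean distance among 10522 genes. TICRR, a regulator of DNA replication initiation, read -0.08 with ERα17p, -0.70 with estradiol and 0.28 with vehicle. On the estradiol array SPATA21 read -0.63 and SAMD10 -0.62, both less low than HAS2. A likeness over 3 arrays is a description of those arrays only.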

How the data were processed

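Total RNA was hybridised to 3 arrays, 1 per group, per the labels. Per the submitters' processing notes the authors used RMA (version not given in the sources used here), hence log2 is the scale assumed for the deposited values. They had been centred per probe set by a step that no source describes. The share of values at exactly 0 was 8.54% for ERα17p, 8.14% for estradiol and 7.08% for vehicle. The median of each array was also 0. Symbols came from the platform annotation: 41097 probe sets had 1 symbol, 1801 several and 11777 none, and the first kind was used. Differences were taken per probe set, and the gene value was their median, on 19775 genes. A call means at least 1.5-fold; no test was possible. Alternatives were a 2-fold limit, the mean of probe sets, leaving out identifiers ending in _x_at or _s_at, quantile normalisation, and taking the centred values themselves in place of differences from vehicle. A planned filter on low values could not be used on centred values. The text names all members, up to 4 genes per list with the largest difference from vehicle, and the 3 genes nearest HAS2. Genes outside this rule are marked. CD14, KRT18, EPCAM, SNAI2, FN1, ZEB1, the probe sets of the closing section and the promoters shown were chosen after their values were seen. Members and lists were chosen with earlier results of these data known. Sequences are RefSeq's (GRCh38.p14), matched by symbol for 7 of the 8 members (not HAS2). Scripts ran in Python 3.11.15 with pandas 2.3.3 and were tested on simulated data.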

Additional observations from a re-analysis of the deposited data

How the results depend on the processing

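HAS2 was at -1.15 for estradiol minus vehicle, and at -1.54 after quantile normalisation. Its centred estradiol value alone, which is not a difference from vehicle, was -0.87. For ERα17p minus estradiol it was at 0.82, and at 1.26 after quantile normalisation, the only alternative there that could change the value. HAS2 has 2 probe sets and neither ends in _x_at or _s_at. Taking the mean, or leaving out such identifiers, therefore could not change its values. At a 2-fold limit 0 members were higher and 0 lower for ERα17p minus estradiol. Without _x_at and _s_at probe sets 0 were lower in that comparison, against 2.37% of all genes, and the members' median for estradiol minus vehicle was -0.067. HYAL2 and TNFAIP6 then had no probe set, and CD44 was at 0.29. The HMMR difference from vehicle was then -0.57 with ERα17p and -0.10 with estradiol. For ERα17p minus vehicle, CEMIP turned to -0.23 without those probe sets and to -0.19 when centred values were taken without subtracting vehicle, and EZR turned to 0.058 in that setting. CD44 was at 0.10 with ERα17p and 0.17 with estradiol in that setting; the arrays behind the centring are unknown. Over all genes, the 2-fold limit gave 661 higher and 491 lower for ERα17p minus vehicle, 779 and 432 for estradiol minus vehicle, and 7 and 42 for ERα17p minus estradiol. At 1.5-fold these counts were 1891 and 1745, 2104 and 1665, and 255 and 404. Quantile normalisation gave 643 and 899 for the last. Centred values alone gave 98 and 125 for ERα17p and 254 and 102 for estradiol. No paired analysis was possible because each group had 1 array.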

Other observations

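A pair of probe sets lay outside the rule for members and were looked at after the other values were seen. The antisense transcript HMMR-AS1, read by 1557029_at, was at 0.36 with ERα17p, -0.03 with estradiol and -0.06 with vehicle, so that ERα17p minus estradiol was 0.39, whereas both HMMR probe sets were lower with ERα17p than with estradiol. Probe set 228179_at, annotated to both UTP4 and HAS3, read -0.35 with ERα17p, -0.02 with estradiol and 0.12 with vehicle, and cannot be assigned to either gene.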
